A study of Chlamydomonas reinhardtii with 2 samples.

Results

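LHCA1 to LHCA9 are the nuclear genes for the light-harvesting antenna proteins of photosystem I in the unicellular green alga Chlamydomonas reinhardtii. They were taken by gene name from the reference rows on nuclear chromosomes in the gene tables of both libraries, with no minimum level. All 9 were present, of 17693 reference genes in all. Transcripts were measured by RNA sequencing of 1 library of the strain CC5325 and 1 library of the strain CC125, both labelled wild type, with no other allele named. Both strains were grown with acetate in the medium, at 25 °C and under light of 20 μmol photons per square metre and second. With 1 library per strain, differences below have no replicate check and no test between strains is possible.

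Photosystem I uses light to move electrons from plastocyanin to ferredoxin, and its antenna proteins bind chlorophyll and carotenoids and pass the energy they absorb to the reaction centre. In this alga LHCA1, LHCA8, LHCA7 and LHCA3 form an inner layer of antenna against the core, and LHCA1, LHCA4, LHCA6 and LHCA5 form an outer layer on top of it. LHCA2 and LHCA9 sit together as a pair at another face of the core.

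Depth in protein-coding genes was low. Reference genes summed to 2507 TPM in CC5325 and 1576 TPM in CC125, beside 1000000 TPM over loci assembled from the reads in each library. Reads of 150 bases in reference genes numbered no more than 108004 in CC5325 and 34287 in CC125. Of these, the single gene Cre08.g374100 held 30731 in CC5325 and 19313 in CC125. These reads were estimated as Coverage, the deposited average depth of reads along a gene, times the gene's span. Spans include introns, so read numbers are upper limits. TPM, the deposited length-scaled relative abundance, was at least 1 in 209 genes of CC5325 and 130 of CC125.

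The antenna genes of photosystem I were higher in CC5325 as a group. Together they held 14.2 TPM in CC5325, against 3.45 TPM in CC125, a ratio of 4.12. The 95% counting interval of this ratio was 3.21 to 5.29, from at most 642 reads in CC5325 and 72.5 in CC125. All counting intervals here are exact, conditional on the sum of both libraries, and cover counting error only. Mates of a pair are not independent reads, so these intervals are the narrowest the depth allows. In a bulk culture, fewer cells with a transcript and less transcript per cell cannot be told apart.

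The size of the group's ratio depends on how the libraries are put on a common scale. Among the 173 genes with a ratio and a mean of at least 1 TPM, the median log2 ratio was 0.63, so that genes in general leaned toward CC5325 on the deposited scale. With that median set to 0 the LHCA ratio was 2.67. Scaled to the summed TPM of reference genes without the 20 most abundant ones, it was 2.16. The genes took 0.595% of the estimated reads in reference genes in CC5325 (exact binomial interval 0.549 to 0.642) and 0.212% in CC125 (0.167 to 0.268). Both totals include the reads of Cre08.g374100, a larger part of the total in CC125. Without the 20 most abundant genes the share was 0.932% in CC5325 and 0.632% in CC125, a ratio of 1.47.

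**Figure D1:**
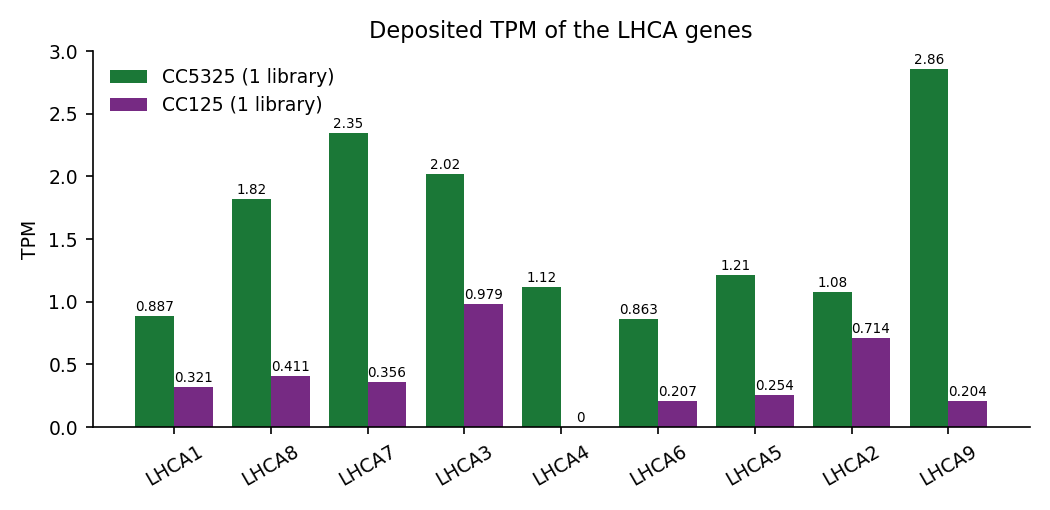
Deposited TPM (y axis) of each LHCA gene (x axis) in the CC5325 library (left bar of each pair) and the CC125 library (right bar), 1 library per strain and so with no error bars. The bars of CC5325 range between 0.863 and 2.86 TPM, and those of CC125 between 0 and 0.979 TPM.

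Single genes were compared by Coverage, scaled in each library by the median ratio of TPM to Coverage. A gene was counted as higher or lower at 2-fold, with fewer than 3 estimated reads raised to 3 and no ratio where both libraries had 3 or fewer. By this rule 8 of the 9 LHCA genes were at least 2-fold higher in CC5325 and none was lower, against 16.0% of 3994 reference genes higher and 11.3% lower. That background holds many genes near the floor of 3 reads, which stands for a higher level in the shallower CC125 library and so pushes faint genes toward a lower ratio. A rule added after the data were seen left out each ratio below 1 in which CC125 had been raised to the floor. Some of these ratios are below 1 without the floor too, so the rule trims the background on its lower side only. The rule left 2062 genes, 31.1% of them higher and 8.49% lower, and the LHCA count was again 8. Over the 9 genes the log2 ratio had a median of 2.14, beside 0.58 over those 2062 genes. With the median of genes at 1 TPM or more set to 0, 6 LHCA genes were at least 2-fold higher and none lower, beside 8.24% of reference genes higher and 41.9% lower. Without the 20 most abundant genes the LHCA counts were the same, beside 5.48% higher and 54.1% lower. Both rescaled backgrounds keep the ratios that the added rule left out, so the push of the floor raises their shares of lower genes. Their median log2 ratios were -0.80 with the median set to 0 and -1.11 without the 20 genes. No rescaled background without those ratios was computed. On the deposited log2(TPM + pseudocount) scale 7 LHCA genes were higher with a pseudocount of 0.1, beside 3.96% of 17693 genes. The count was 3 with a pseudocount of 1 (0.492%) and 0 with 5 (0.0452%). These percentages take in genes at 0 TPM in both libraries, which cannot pass 2-fold. With a pseudocount of 1 and faint genes left out (average under 1 TPM), 2 of 4 LHCA genes were higher and none lower. Of the 175 reference genes left by that rule, 34.9% were higher and 10.3% lower. In ratios of scaled Coverage, a floor of 10 reads gave 6 higher LHCA genes (13.4% of 1218 genes). There a minimum of 1 TPM on average left 4 LHCA genes, all 4 higher (43.9% of 173 genes).

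LHCA1 (Cre06.g283050, chromosome 6, 5132577 to 5135243, plus strand) is the antenna protein that occurs in both layers. It stood at 0.887 TPM in CC5325, against 0.321 TPM in CC125, with at most 40.3 reads in CC5325 and 6.58 in CC125. Its ratio of scaled Coverage was 2.76, with a counting interval of 1.14 to 6.82. It was 1.79 with the median of genes at 1 TPM or more set to 0 and 1.45 without the 20 most abundant genes, so LHCA1 was not counted as higher on those scales.

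Of the other genes of the inner layer, LHCA7 (Cre16.g687900, chromosome 16, 4757396 to 4760486, minus strand) stood farthest apart. Its level was 2.35 TPM in CC5325, against 0.356 TPM in CC125, a ratio of 6.61 (3.44 to 16.6) from at most 124 reads in CC5325 and 8.44 in CC125. LHCA8 (Cre06.g272650, chromosome 6, 2884129 to 2886577, minus strand) stood at 1.82 TPM in CC5325, against 0.411 TPM in CC125, a ratio of 4.42 (2.07 to 10.3). Both genes had fewer than 10 estimated reads in CC125, and their intervals overlap.

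LHCA3 (Cre11.g467573, chromosome 11, 331144 to 334255, plus strand), whose protein ends the inner layer near the PsaK subunit, was the most abundant LHCA gene of CC125. It stood at 2.02 TPM in CC5325, against 0.979 TPM in CC125, with at most 107 reads in CC5325 and 23.4 in CC125. Its ratio of 2.06 (1.33 to 3.45) lay just past 2-fold, and was 1.33 with the median of genes at 1 TPM or more set to 0 and 1.08 without the 20 most abundant genes. A gene on the opposite strand, Cre11.g467574, overlaps 60.7% of the LHCA3 span. Its Coverage was 0.675 in CC5325 and 0.176 in CC125, while that of LHCA3 was 5.16 in CC5325 and 1.13 in CC125. Whether the counting used strand is not given in the sources used here, so reads of LHCA3 and of this gene cannot be told apart in the overlap.

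LHCA4, LHCA6 and LHCA5, of the outer layer, were faint in CC125, as was LHCA9 at 0.204 TPM outside it. LHCA4, LHCA6 and LHCA5 together held 3.19 TPM in CC5325, against 0.461 TPM in CC125, a ratio of 6.92 (3.55 to 15.4). LHCA8, LHCA7 and LHCA3 together held 6.19 TPM in CC5325, against 1.75 TPM in CC125, a ratio of 3.54 (2.51 to 5.00). The intervals of these sums overlap, and the difference between them was not tested. LHCA4 is listed at 0 in CC125, so it adds to the first sum in CC5325 only. Single ratios of LHCA5 (4.77) and LHCA6 (4.17) lay between those of LHCA3 (2.06) and LHCA7 (6.61) of the inner layer. LHCA1, which occurs in both layers, is in neither sum.

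LHCA4 (Cre10.g452050, chromosome 10, 4672593 to 4676454, minus strand) reached 1.12 TPM in CC5325, from at most 73.4 reads, whereas the CC125 table lists it at 0. It counts among the 8 higher genes through the floor of 3 reads over its span, and no fold is given for it. It was the only LHCA gene listed at 0 in either library. A count of 0 in CC125 allows up to 3 reads, which are 4.14% of the 72.5 LHCA reads estimated there and a larger share if the reads are fewer. LHCA4 held 11.4% of the LHCA reads of CC5325 (exact binomial interval 9.02 to 14.1). That share is raised by its span, the longest of the 9, and by TPM LHCA4 held 7.85%. By recovered lengths, described below, 6 of the other genes had 29.9 reads in CC125. No difference in the share of LHCA4 between the libraries is read from these values.

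LHCA5 (Cre10.g425900, chromosome 10, 1182112 to 1184624, plus strand) stood at 1.21 TPM in CC5325, against 0.254 TPM in CC125, a ratio of 4.77 (1.89 to 15.1). LHCA6 (Cre06.g278213, chromosome 6, 4019246 to 4021794, plus strand) stood at 0.863 TPM in CC5325, against 0.207 TPM in CC125, a ratio of 4.17 (1.50 to 16.1). Their CC125 values rest on at most 4.91 reads for LHCA5 and 4.04 reads for LHCA6, so neither ratio is known to better than several-fold.

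LHCA2 and LHCA9, whose proteins bind as a pair, stood at opposite ends of the range of ratios. LHCA9 (Cre07.g344950, chromosome 7, 4675487 to 4677302, minus strand) stood at 2.86 TPM in CC5325, the highest of the 9, and at 0.204 TPM in CC125, the lowest of the 8 above 0. Its ratio was 13.4 (4.18 to 62.5), from at most 84.2 reads in CC5325 and 2.84 in CC125. LHCA2 (Cre12.g508750, chromosome 12, 2228731 to 2231396, plus strand) stood at 1.08 TPM in CC5325, against 0.714 TPM in CC125, a ratio of 1.51 (0.813 to 2.83). It was the 1 LHCA gene under 2-fold, and its interval takes in equality. With the median of genes at 1 TPM or more set to 0 its ratio was 0.977, and without the 20 most abundant genes 0.791, so its direction turns with the scale.

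The contrast between LHCA9 and LHCA2 does not depend on the scale between libraries, since it can be read within each. The Coverage of LHCA9 was 2.52 times that of LHCA2 in CC5325 and 0.285 times in CC125, and the quotient of these ratios was 8.85 (counting interval 2.24 to 47.8). The pair was singled out by its place in the complex and after its values were seen. A gene on the opposite strand, Cre07.g800838, overlaps 99.1% of the LHCA9 span. Its Coverage was 3.48 in CC5325 and 0.186 in CC125, a ratio of 8.45 once scaled, while that of LHCA9 was 6.95 in CC5325 and 0.234 in CC125. The part of this overlap in the LHCA9 ratio was not tested. Without LHCA9 the other 8 genes held 11.3 TPM in CC5325, against 3.24 TPM in CC125, a ratio of 3.50 (2.71 to 4.53).

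**Figure D2:**
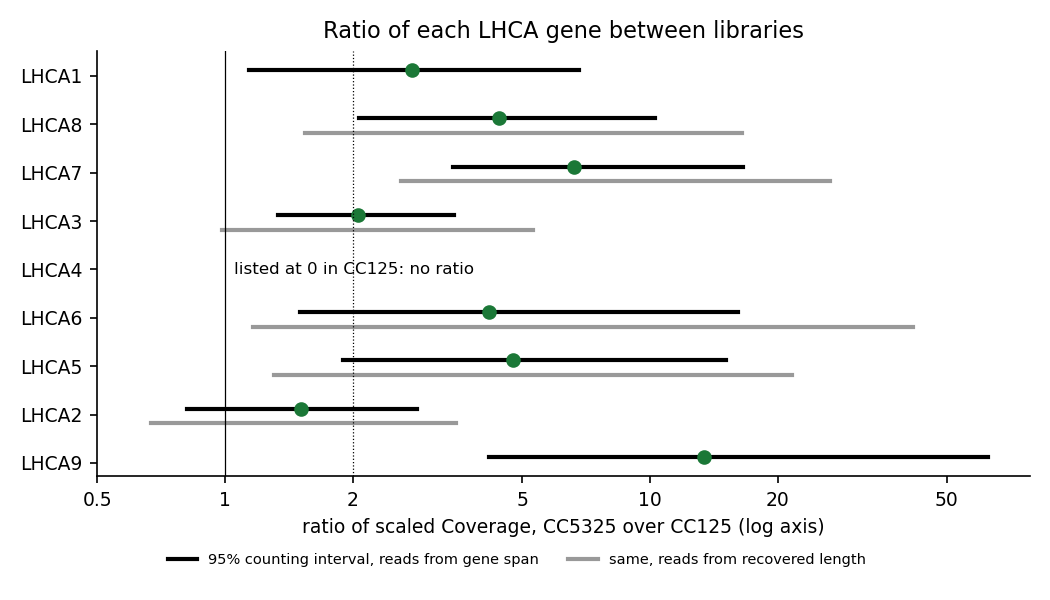
Ratio of scaled Coverage of each LHCA gene, CC5325 over CC125, on a log axis, with genes ordered by their place in the complex. Dots are ratios, black lines are 95% counting intervals with reads from the gene span, and grey lines are the same with fewer reads from a recovered gene length; thin vertical lines mark equality and 2-fold. Ratios run between 1.51 for LHCA2 and 13.4 for LHCA9, the interval of LHCA2 takes in equality, and LHCA4 has no ratio.

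Reads behind these values can be narrowed for 6 genes. Coverage is a number of aligned bases divided by a length, and for each of these genes at least 1 length within the span turned the Coverage of both libraries into whole numbers of bases. Exactly 1 length was found for LHCA2 (1571 bp), LHCA5 (1348 bp), LHCA6 (1437 bp) and LHCA7 (1556 bp), while LHCA3 and LHCA8 had a pair of lengths each, of which the shorter was used (1099 and 1216 bp). No common length was found for LHCA1 and LHCA9, and LHCA4 could not be tried. By these lengths LHCA6 rested on 21.1 reads in CC5325 and 2.28 in CC125, and LHCA7 on 62.2 reads in CC5325 and 4.25 in CC125. The ratios stay as they were and their intervals widen, for LHCA7 to 2.60 to 26.5 and for LHCA6 to 1.16 to 41.7. By the shorter of its lengths LHCA3 then joined LHCA2 in taking in equality, at 0.985 to 5.32. Its longer length (2198 bp) would give more reads and a narrower interval, which was not computed. Summed over the 6 genes the ratio was 3.20 (2.16 to 4.83), or 1.85 to 5.91 with every 300 bases counted as 1 pair. Counted as pairs, the intervals of LHCA5 (0.961 to 267) and LHCA6 (0.721 to 214) took in equality as well, and those of LHCA7 (1.78 to 60.3) and LHCA8 (1.03 to 37.9) did not.

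Set among all reference genes by TPM, the LHCA genes ranked between 93 and 224 in CC5325. The 8 genes above 0 in CC125 ranked between 131 and 368. The rank of LHCA3 was 124 in CC5325 and 131 in CC125, and that of LHCA2 was 185 in CC5325 and 165 in CC125. LHCA9, by contrast, ranked 93 in CC5325 and 368 in CC125, and LHCA7 ranked 111 in CC5325 and 233 in CC125. Ranks need no common scale, but the number of genes listed above 0 differed, at 9438 in CC5325 and 3748 in CC125.

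**Figure D3:**
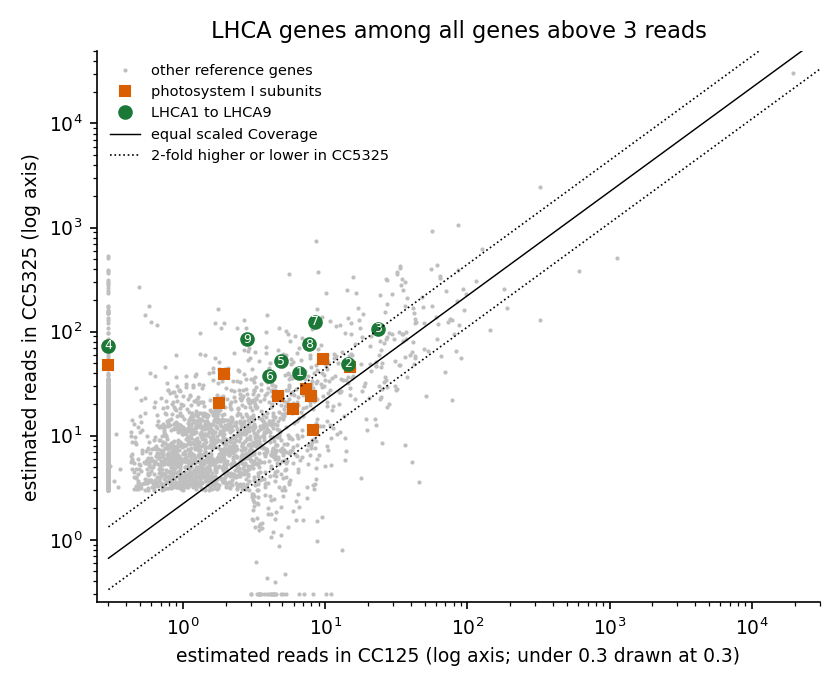
Estimated reads in CC5325 (y axis) against estimated reads in CC125 (x axis), both on log axes, for the 3994 reference genes with more than 3 reads in at least 1 library. Large dots with numbers are LHCA1 to LHCA9, squares are the nuclear photosystem I subunit genes, the full line marks equal scaled Coverage and the dotted lines 2-fold. Of the LHCA genes 8 lie above the upper dotted line, with LHCA4 at the left edge, and LHCA2 lies between the lines.

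The order of the genes differed between the libraries. In CC5325, LHCA9 was followed by LHCA7, LHCA3, LHCA8, LHCA5, LHCA4, LHCA2, LHCA1 and LHCA6, over a 3.32-fold range of TPM. In CC125, LHCA3 was followed by LHCA2, LHCA8, LHCA7, LHCA1, LHCA5, LHCA6 and LHCA9, over a 4.81-fold range, with LHCA4 last at 0. Most neighbours in these orders did not differ beyond counting error. In CC5325 the interval of the Coverage ratio took in equality for 7 of the 8 neighbouring pairs, the exception being LHCA8 over LHCA5 at 1.50 (1.04 to 2.18). In CC125 it did so for all 7 pairs above 0. The ends of each order differed beyond counting error, with LHCA9 over LHCA6 at 3.16 (2.14 to 4.83) in CC5325 and LHCA3 over LHCA9 at 4.81 (1.35 to 23.3) in CC125. Spearman's rho of TPM between the libraries was 0.12 across the 9 genes and 0.48 without LHCA9, a description over few genes.

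As shares of the LHCA TPM, LHCA9 took 20.2% in CC5325 and 5.91% in CC125. LHCA3 took 14.2% in CC5325 and 28.4% in CC125, and LHCA2 took 7.62% in CC5325 and 20.7% in CC125. LHCA3 and LHCA2 thus made up a larger part of the family's signal in CC125. In reads, the odds of a read lying in LHCA2 and not in another LHCA gene were 0.320 times as high in CC5325 as in CC125 (counting interval 0.164 to 0.654). For LHCA3 they were 0.435 times as high (0.248 to 0.781), and for LHCA9 3.51 times (1.11 to 17.8). With the recovered lengths, over 6 genes, LHCA2 gave 0.366 (0.143 to 0.998). LHCA3, by the shorter of its lengths, gave 0.592 (0.231 to 1.66). LHCA1, LHCA5, LHCA6, LHCA7 and LHCA8 had odds whose intervals took in equality.

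**Figure D4:**
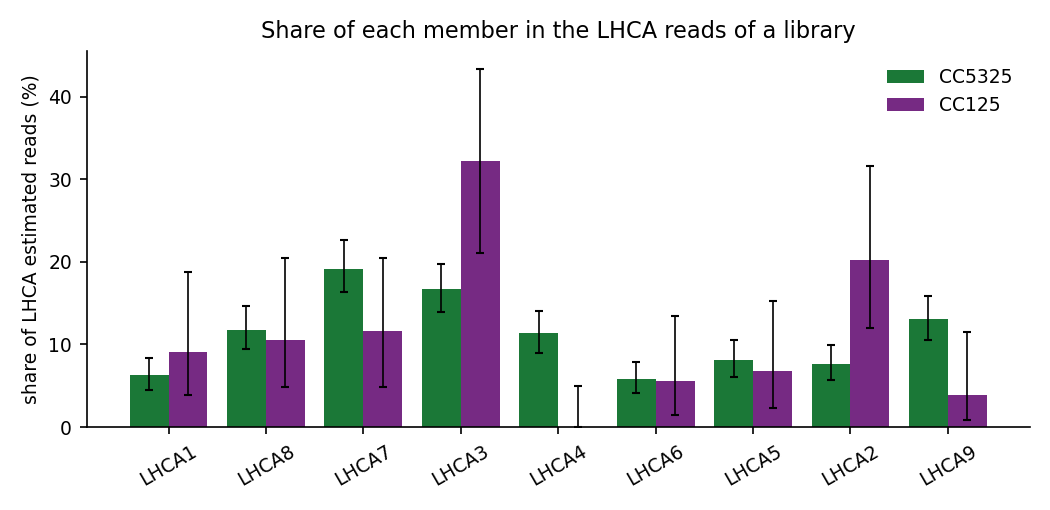
Share of each gene in the estimated LHCA reads of a library, in percent (y axis), for CC5325 (left bar of each pair) and CC125 (right bar); error bars are exact 95% binomial intervals that cover counting error only. LHCA3 reaches 16.7% in CC5325 against 32.2% in CC125, LHCA2 reaches 7.62% in CC5325 against 20.2% in CC125, and LHCA9 reaches 13.1% in CC5325 against 3.91% in CC125.

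Loci that the tables list as assembled, apart from the reference rows, overlapped all 9 LHCA genes in CC5325, as 12 loci. In CC125 2 loci overlapped LHCA2 and LHCA3, the genes with the most estimated reads there, and the other 7 genes had none. Each of these loci lay on the strand of its gene. The loci and the reference rows rest on the same reads, so they are no second measurement.

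In CC5325 the loci at LHCA7 and LHCA9 had the ends and the Coverage of the annotated genes themselves, and that at LHCA2 took in 99.8% of the span. In LHCA1, LHCA3 and LHCA5 a single locus began between base 34 and base 44 of the gene and stopped 848 to 979 bases before its end. LHCA4, LHCA6 and LHCA8 were each broken into 2 loci. For LHCA4 these reached over bases 368 to 1410 and 1692 to 3621 of its 3862. Such extents can include introns and do not show that each base was read. In CC125 the LHCA3 locus ran over bases 45 to 1327 of 3112 with a Coverage of 2.55, and in CC5325 the LHCA3 locus ran over bases 44 to 2264 with a Coverage of 7.20.

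**Figure D5:**
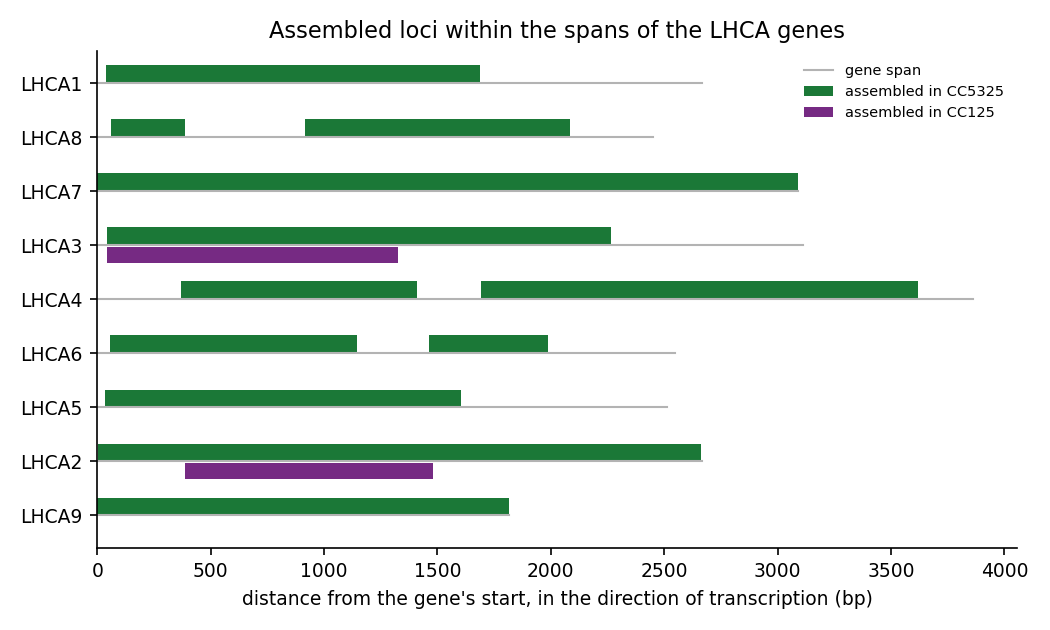
Loci listed as assembled within the span of each LHCA gene, by distance from the gene's start in the direction of transcription (x axis, bp). Grey lines are gene spans, bars above them are loci of CC5325 and bars below them loci of CC125. All 9 genes hold a CC5325 locus, and LHCA2 and LHCA3 also hold a CC125 locus.

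For the core of photosystem I, to which these antenna proteins bind, the 10 nuclear subunit genes held 10.8 TPM in CC5325, against 4.97 TPM in CC125, a ratio of 2.17, and 5 of the 10 were at least 2-fold higher in CC5325 with none lower, against the background of 16.0% and 11.3%. Their median log2 ratio was 1.02. These counts rest on the scale. With the median of genes at 1 TPM or more set to 0 the subunit genes gave 3 higher and 1 lower, median 0.39. Of all reference genes with a ratio, 8.24% were then higher and 41.9% lower, median -0.80. Without the 20 most abundant genes the subunit genes gave 2 higher and 1 lower, median 0.08. Of all reference genes with a ratio, 5.48% were then higher and 54.1% lower, median -1.11. The floor of 3 reads pushes both backgrounds toward lower ratios. Summed LHCA signal was 132% of that of the subunit genes in CC5325 and 69.3% in CC125. PSAG1, whose protein holds the antenna near LHCA1, reached 2.43 TPM in CC5325 and, like LHCA4, was at 0 in the CC125 table. PSAK1, at the LHCA3 end of the antenna, stood at 1.54 TPM in CC5325, against 0.596 TPM in CC125, a ratio of 2.58 (1.25 to 5.46). PSAF1, which docks plastocyanin, stood at 1.29 TPM in CC5325, against 0.946 TPM in CC125, and PSAD1, which docks ferredoxin, at 1.31 TPM in CC5325, against 0.958 TPM in CC125. Neither of these differed beyond counting error. PSAE1 was the 1 subunit gene with a ratio below 1. It stood at 0.762 TPM in CC5325, against 1.22 TPM in CC125, a ratio of 0.624 (0.227 to 1.78). PSAE1 is the gene counted lower on both rescaled scales, and its interval takes in equality. The other genes at least 2-fold higher in CC5325 encode small subunits. PSAI1 had 1.01 TPM in CC5325, against 0.112 TPM in CC125, PSAL1 had 0.572 TPM in CC5325, against 0.111 TPM in CC125, and PSAO1 had 0.612 TPM in CC5325, against 0.260 TPM in CC125. Of these, the counting interval of PSAO1 takes in equality (0.810 to 7.27). PSAI1 (2.28 to 75.2) and PSAL1 (1.16 to 41.7) had at most 1.95 and 1.80 reads in CC125, under the floor of 3.

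The antenna genes of photosystem II and the stress-related antenna genes, 15 in all, held 43.4 TPM in CC5325, against 8.95 TPM in CC125, a ratio of 4.85 beside 4.12 for the LHCA genes. Of the 13 with a ratio, 9 were at least 2-fold higher in CC5325 and 1 was counted lower, beside 16.0% and 11.3% of all reference genes with a ratio. With the median set to 0 there were 7 higher and 2 lower, beside 8.24% and 41.9% of reference genes. Without the 20 most abundant genes there were 7 higher and 3 lower, beside 5.48% and 54.1%. The 1 gene counted lower before rescaling, LHCSR1, had at most 3.04 reads in CC5325 and 0.627 in CC125, so its count is made by the floor alone. LHCA genes amounted to 32.8% of the TPM of this list in CC5325 and 38.5% in CC125. LHCB5, a minor antenna gene, stood at 1.31 TPM in CC5325, against 0.126 TPM in CC125. LHCBM4 stood at 0.664 TPM in CC5325, against 0.196 TPM in CC125, LHCBM5 at 0.528 TPM in CC5325, against 0.0402 TPM in CC125, and LHCBM6 at 1.07 TPM in CC5325, against 0.143 TPM in CC125. In CC125 LHCB5 had at most 2.85 reads, LHCBM4 2.61 and LHCBM5 0.935, all under the floor of 3. The counting interval of LHCBM4 takes in equality (0.892 to 15.8), and that of LHCBM5 ran from 2.01 to 499. LHCBM1, LHCBM2, LHCBM3, LHCBM7 and LHCB4 were the other genes past 2-fold, with ratios between 2.04 and 18.7. LHCBM genes are close paralogs among which reads can be split.

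The genes with the ratio nearest to that of the summed LHCA Coverage (4.08) were sought among 99 genes with a symbol and at least 20 estimated reads in each library. The 5 nearest lay within 0.22 on the log2 scale of scaled Coverage. They were EEF1A3 (3.78 TPM in CC5325, against 0.907 TPM in CC125), RPL14 (6.88 TPM in CC5325, 1.64 in CC125), VIG1 (4.47 TPM in CC5325, 1.19 in CC125), EEF1A1 (4.29 TPM in CC5325, 1.16 in CC125) and RPL17 (4.94 TPM in CC5325, 1.15 in CC125). The TPM of RPL17 differ from what its Coverage gives, and its ratio of scaled Coverage was 3.49. EEF1A genes encode a translation elongation factor, and RPL14 and RPL17 proteins of the large ribosomal subunit. This likeness is of 1 ratio over 2 libraries.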

How the data were processed

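RNA of 1 library each of CC5325 and CC125 was extracted with Trizol, depleted of ribosomal RNA and read as 150 base pairs of ends, per the labels' protocols. StringTie 2.2.3, HISAT2 2.2.1, FastQC 0.12.1 and Trimmomatic are named, per the submitters' processing notes, with settings not given in the sources used here. Gene identifiers end in the tag of annotation version 6.1 of strain CC-4532, and coordinates are those of the files. The deposited Coverage is a signal in mean reads per base, the deposited FPKM is fragments per kilobase, scaled to the library's fragments, and the deposited TPM is scaled by the authors over loci assembled in each library, with reference gene rows on top.

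From these, estimated reads were computed as Coverage times span over the read length, and ratios from Coverage scaled by each library's median TPM per Coverage (0.392 in CC5325 and 0.868 in CC125). Counting intervals are exact at 95%. Lengths were recovered where Coverage times a length of at least 200 bp lay within 6e-07 per base of a whole number in both libraries. Of 603 genes with a Coverage of at least 0.1 in both, 83.3% had such a length. The ratio rule, the intervals and the length search were run on simulated data with independent reads and whole bases over known lengths. Read pairs and overlapping genes were not simulated, so these runs check the calculation and not its assumptions. Named genes were all LHCA genes, up to 4 of each other list with the highest mean TPM and those past 2-fold, the 5 nearest in ratio, overlapping genes and loci, and FUS1, MID and MTD1. PSAE1 and Cre08.g374100 were named after the values were seen. The members and lists were chosen with earlier results of these data known, and the sums by layer and the recovered lengths were added after seeing the values. Calculations used scipy 1.17.1, pandas 2.3.3, numpy 2.4.6 and matplotlib 3.10.9 under Python 3.11.15.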

Additional observations from a re-analysis of the deposited data

How the results depend on the processing

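The ratio of summed LHCA levels was above 1 under each scale tried. It was 4.12 as deposited, 5.01 with FPKM, 4.08 from Coverage, 2.67 with the median of genes at 1 TPM or more set to 0, 2.45 when scaled to nuclear reference genes and 2.16 without the 20 most abundant genes. Without LHCA9, LHCA3 or LHCA4 it was 3.50, 4.94 or 3.80. The number of LHCA genes at least 2-fold higher in CC5325 was 8, and it was 7 with a pseudocount of 0.1 TPM, 6 with a floor of 10 reads and 6 with either the median at 0 or the 20 genes left out. It was 4 when a mean of at least 1 TPM was required, which 4 genes met, 3 with a pseudocount of 1 and 0 with a pseudocount of 5, since pseudocounts lower the ratios of genes near 1 TPM. No LHCA gene was 2-fold lower in any of these settings. The share of all reference genes counted higher under each of these rules is given above. The LHCA share of reads was 0.932% in CC5325 and 0.632% in CC125 without the 20 most abundant genes. Photosystem I subunit genes at least 2-fold higher numbered 5, and 2 with a mean of at least 1 TPM, 1 with a pseudocount of 1 and 0 with a pseudocount of 5. They numbered 3 with the median at 0 and 2 without the 20 genes, each with 1 lower. For the photosystem II antenna list the 9 became 5, 5 and 1 in that order, and the 1 lower gene became 0 with each pseudocount, with the minimum of 1 TPM and with ratios set by the floor dropped. With the median at 0 that list gave 7 higher and 2 lower, without the 20 genes 7 higher and 3 lower, and with a pseudocount of 0.1 it gave 11 higher. Of 18 within-library shares, 2 moved past their counting interval when reads took the place of TPM. No exon lengths from an annotation were used. No paired analysis was possible because each strain has 1 library. Depth limits the CC125 values, with fewer than 10 estimated reads for 7 of the 9 genes.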

Other observations

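The mating type genes FUS1 and MTD1 were listed at 0 TPM in both libraries, so they do not tell the strains apart, and MID was not matched by its symbol.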
